A study of Mus musculus with 20 samples.

Results

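Of 24421 genes counted in mouse bone marrow-derived macrophages, 11 were at their highest with the formulation LP 3M and lower both without 3M and when PIC was added to it: Slc13a3, Emb, Slc35g1, Serinc2, Ust, Scd2, Gsta3, Cd55, Ceacam19, Lancl3 and Morc4. They were chosen on the level in CPM (a gene's reads divided by all gene reads of its library and multiplied by 1000000). The mean over 5 libraries had to be at least 5 CPM in LP 3M and at least 2 times the mean in each of the other conditions. Of 9442 genes that reached 5 CPM in LP 3M, the 11 made up 0.117%. By the same limits 209 genes had their peak in LP, 32 in LP PIC and 183 in LP 3M PIC. The genes Mmp12, Pf4 and Fpr2 were left out by name, and none of them met the fold limit (ratios of the LP 3M mean to the highest other mean of 0.708, 1.85 and 0.306).

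The macrophages were grown from marrow in DMEM with serum and conditioned medium of L929, a fibroblast line whose medium is rich in CSF-1, the factor that drives marrow cells to become macrophages. They were then exposed to a formulation for 48 h. LP, taken to be the lipoparticle named in the series title, was part of all 4 conditions, including the control. LP PIC and LP 3M are the formulations with 1 added component and LP 3M PIC the dual one; the codes are used as the labels give them. Cells of the same 5 mice went through each condition, which gave 20 libraries. No strain, sex, age or dose is stated in the sources used here, so the amount of 3M in the single and the dual formulation could not be compared. Libraries held 9740528 to 23874805 gene counts (median 22751911), and 3 counts correspond to 0.126 to 0.308 CPM.

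Several of these genes act at membranes. Solute carriers such as Slc13a3 and Slc35g1 move small metabolites across membranes, and macrophages exchange citric acid cycle intermediates and lactate with their surroundings when their metabolism shifts during activation. Cd55 protects cells from complement, the blood protein cascade that macrophages help to direct. Scd2 and Gsta3 belong to pathways that macrophages tune to lipid supply and oxidants: the former introduces double bonds into fatty acids, the latter conjugates glutathione to reactive compounds.

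The choice of genes used LP 3M against each of the other conditions, so those differences are given as a description with no test. Tests are given for the 3 comparisons among LP, LP PIC and LP 3M PIC. They used edgeR's quasi-likelihood test with Benjamini-Hochberg adjustment over all 12132 genes tested. The choice did not compare these conditions with each other. Their means did enter it as upper limits relative to LP 3M, so these tests are not independent of the choice. For Emb, Scd2 and Gsta3 the LP mean lay near the upper limit, so the choice left little room for a mean above LP. All 11 genes passed the filter on low counts, also in a fit without the LP 3M libraries. Cd55 did not pass it when LP and LP PIC were fitted alone. In RNA from whole cultures, fewer cells of a type and less RNA per cell cannot be told apart.

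**Figure D1:**
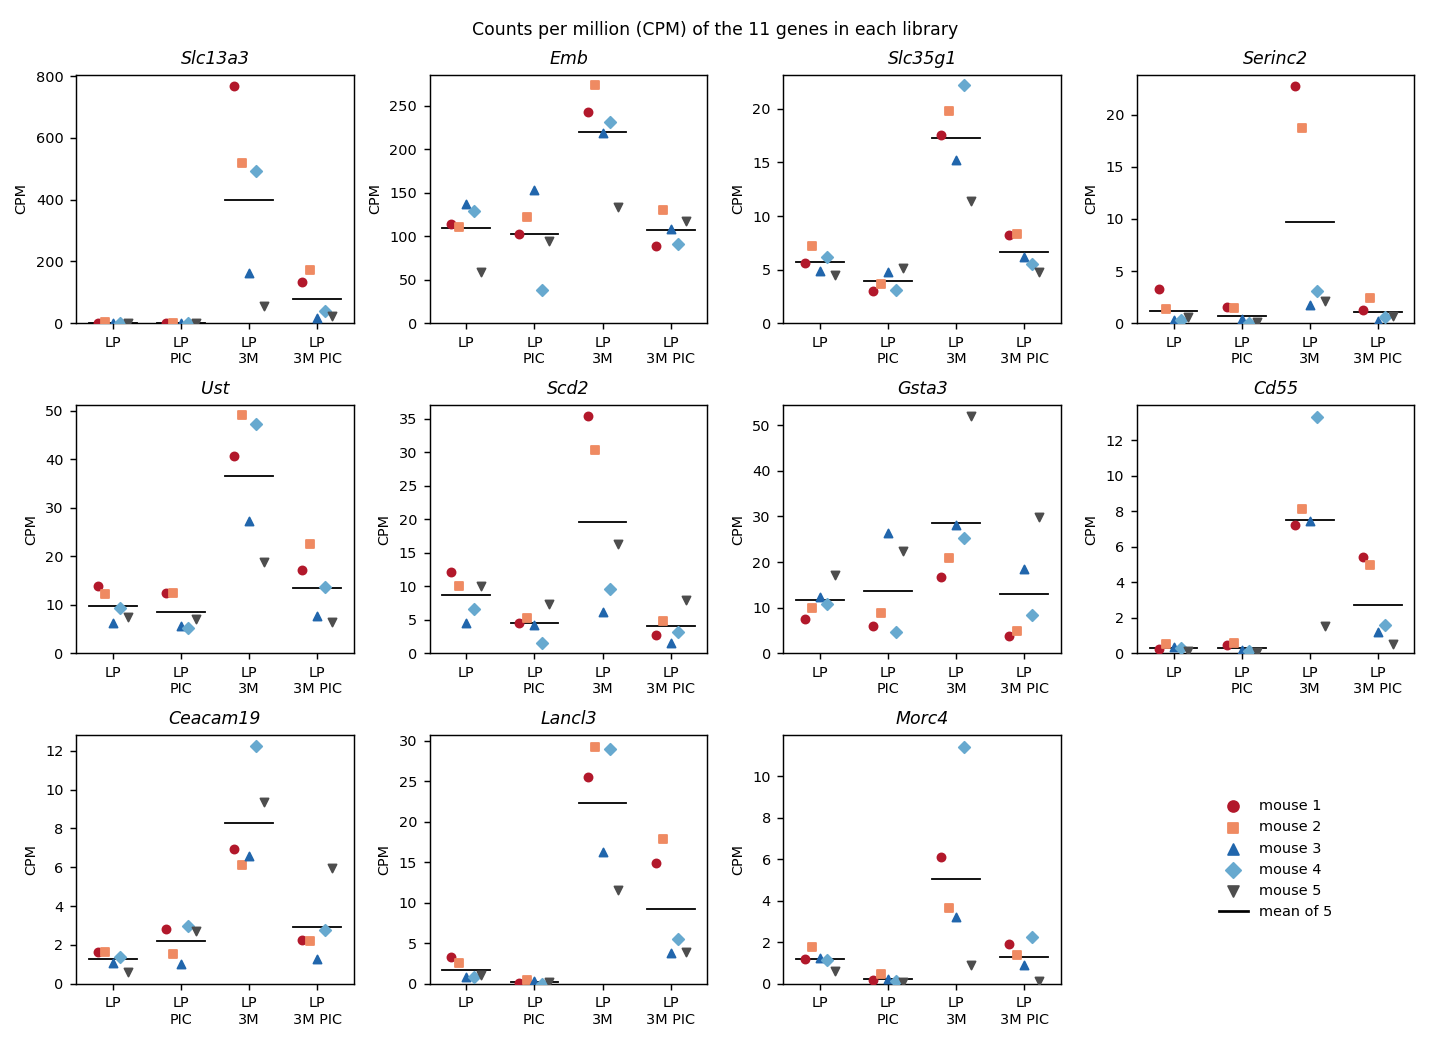
CPM (vertical axis, linear, own range per panel) of each of the 11 genes in the 20 libraries, by condition (horizontal axis). Symbols mark the mouse and the bar is the mean of 5; in every panel the mean is highest in LP 3M, while the spread between mice in LP 3M is wide for Slc13a3 (55.1 to 767 CPM) and Serinc2 (1.73 to 22.7 CPM) and narrow for Slc35g1 (11.4 to 22.2 CPM).

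Slc13a3 encodes a sodium-coupled transporter of dicarboxylates such as succinate and lies at chr2:165405028-165473230 on the minus strand of GRCm38. It was the most abundant of the 11 per length of transcript, at 76.5 CPM per kb in LP 3M, and its LP 3M mean was 205 times that in LP. In LP 3M it stood at 767, 518, 161, 494 and 55.1 CPM in mice 1 to 5, and in LP 3M PIC at 134, 171, 18.1, 40.02 and 23.9. In LP it stood at 2.52, 3.59, 1.13, 1.26 and 1.21 CPM, and in LP PIC at 1.18, 0.907, 0.263, 1.23 and 0.864. LP 3M was thus highest within each mouse, but the group ranges of LP 3M and LP 3M PIC overlapped, since mouse 2 with the dual formulation lay above mice 3 and 5 with LP 3M. The means were 399 ± 289 CPM in LP 3M and 77.4 ± 70.3 with PIC added (SD, n = 5), a ratio of 5.15. With the dual formulation Slc13a3 remained far above the lipoparticle alone, by 5.55 ± 0.81 on the log2 scale (fitted change and SE, adjusted p = 9.4e-06, higher in 5 of 5 mice) and above LP PIC by 6.52 ± 0.86 (adjusted p = 1.43e-05, 5 of 5 mice). Of the rise over LP, 19.0% was left when PIC was present.

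The stretch before the Slc13a3 start site is shown because this gene had the largest range of the 11 and because its window was the only one of theirs with the E-box CACGTG. It runs from −220 to −40 relative to the start in the RefSeq promoter table (GRCm38.p6, chr2:165473237-165473417, minus strand, 5′ to 3′). Capitals mark, in order, a match to the core of the antioxidant response element (TGANNNNGC) and the E-box.
Slc13a3: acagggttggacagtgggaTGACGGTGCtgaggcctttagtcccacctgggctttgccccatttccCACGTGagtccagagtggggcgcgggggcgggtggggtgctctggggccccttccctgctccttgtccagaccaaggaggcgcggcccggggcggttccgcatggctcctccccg
A match is a description of the letters and not a binding site.

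Emb encodes embigin, a partner protein that carries monocarboxylate transporters to the cell surface (chr13:117208536-117274415, plus strand). It was second in level per length, at 31.9 CPM per kb in LP 3M, and sat at the limit of the choice with a ratio of 2.00. The LP 3M libraries held 243, 274, 219, 231 and 134 CPM, and those of LP 3M PIC 89.3, 131, 108, 91.2 and 118. Without 3M the levels were 114, 111, 137, 129 and 59.2 CPM in LP and, in LP PIC, 102, 122, 153, 38.7 and 94.1. Mice 1 to 4 in LP 3M lay above all 15 other libraries, and mouse 5 did not. Among LP, LP PIC and LP 3M PIC the levels were close, with log2 differences of −0.08 ± 0.28 for LP PIC against LP and 0.07 ± 0.28 for LP 3M PIC against LP (adjusted p = 0.848 and 0.839). The LP mean already lay at the fold limit, so the choice left the other means almost no room above it in CPM. The closely related Bsg, which encodes basigin, another partner of these transporters, stood at 322 ± 46.2 CPM in LP 3M, 301 ± 27.7 in LP and 331 in both conditions with PIC (SD 7.76 and 32.9), and was not called for LP 3M against LP (0.21 ± 0.10, adjusted p = 0.122).

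Slc35g1 encodes a membrane-spanning protein of a solute carrier family (chr19:38395980-38405610, plus strand). The LP 3M libraries held 17.6, 19.8, 15.3, 22.2 and 11.4 CPM, and those of LP 3M PIC 8.21, 8.29, 6.22, 5.54 and 4.78. Without 3M the levels were 5.64, 7.19, 4.84, 6.23 and 4.51 CPM in LP and, in LP PIC, 3.00, 3.67, 4.77, 3.09 and 5.13. Slc35g1 had an even pattern: all 5 LP 3M libraries lay above all 15 others, and the within-mouse ratio to the highest other condition ran from 2.14 to 3.57. It was 0.83 ± 0.21 higher on the log2 scale in LP 3M PIC than in LP PIC (adjusted p = 0.00366, 4 of 5 mice). It missed the threshold when mouse 1 was left out (adjusted p = 0.0524, with 0.00024 to 0.0524 across all alternatives). Against LP, Slc35g1 was not called for LP PIC (−0.48 ± 0.21, adjusted p = 0.0728) or for LP 3M PIC (0.35 ± 0.21, adjusted p = 0.15). Without mouse 5, LP PIC was called lower than LP (−0.67, adjusted p = 0.00754, with 0.00754 to 0.262 across all alternatives).

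Serinc2 belongs to the serine incorporators, membrane proteins linked to serine-containing lipids (chr4:130253495-130279205, minus strand). In LP 3M it stood at 22.7, 18.7, 1.73, 3.06 and 2.14 CPM, and in LP 3M PIC at 1.30, 2.44, 0.239, 0.628 and 0.726. In LP it stood at 3.24, 1.33, 0.305, 0.305 and 0.581 CPM, and in LP PIC at 1.52, 1.43, 0.394, 0.0441 and 0.115. Its ratio of 8.38 to the highest other mean was the largest of the 11, but the mean of 9.66 ± 10.2 CPM in LP 3M rested on mice 1 and 2. Within each of the 5 mice the LP 3M level was still 2.94 to 7.66 times the highest other condition. With the dual formulation Serinc2 stood near its level in LP (0.08 ± 0.93, adjusted p = 0.946), with an SE too wide to place it closely. That fit did not pair the libraries of a mouse. With the mouse as a block the difference was 0.13 ± 0.42 (adjusted p = 0.800), and against LP PIC it was 0.88 ± 0.44 (adjusted p = 0.104). Its relatives Serinc1, at 252 ± 17.6 CPM in LP 3M against 268 ± 30.0 in LP, and Serinc3, at 327 ± 34.1 against 471 ± 23.9, did not share its peak, and Serinc3 fell with LP 3M by 0.42 ± 0.07 (adjusted p = 0.000108).

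Ust encodes uronyl 2-O-sulfotransferase, a Golgi enzyme that sulfates uronic acid in chondroitin and dermatan sulfate chains (chr10:8204756-8518825, minus strand). The LP 3M libraries held 40.5, 49.0, 27.3, 47.3 and 18.9 CPM, and those of LP 3M PIC 17.1, 22.6, 7.65, 13.7 and 6.45. Without 3M the levels were 13.9, 12.2, 6.36, 9.40 and 7.42 CPM in LP and, in LP PIC, 12.4, 12.4, 5.74, 5.25 and 7.14. The LP 3M level was at least 2.17 times the highest other condition in each mouse, and mouse 5 in LP 3M lay under mouse 2 in LP 3M PIC. Ust was not called for LP 3M PIC against LP (0.59 ± 0.36, adjusted p = 0.162) or against LP PIC (0.74 ± 0.36, adjusted p = 0.104). With the mouse as a block both were called higher, by 0.49 ± 0.19 (adjusted p = 0.0324, with 0.0324 to 0.392 across all alternatives) and 0.67 ± 0.19 (adjusted p = 0.00857, with 0.00857 to 0.299 across all alternatives).

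Scd2 encodes a stearoyl-CoA desaturase, which makes monounsaturated fatty acids and is a known target of the sterol-regulated SREBP factors (chr19:44293674-44306864, plus strand). In LP 3M it stood at 35.4, 30.3, 6.27, 9.63 and 16.4 CPM, and in LP 3M PIC at 2.83, 4.87, 1.59, 3.24 and 8.03. In LP it stood at 12.2, 10.1, 4.58, 6.66 and 10.01 CPM, and in LP PIC at 4.49, 5.36, 4.25, 1.54 and 7.37. For Scd2 the mean of LP lay above both conditions with PIC: the means of LP PIC and LP 3M PIC were 23.5 and 21.0% of the LP 3M mean, against 44.3% in LP. Each mouse was lower than in LP in both, but neither difference was called (−0.87 ± 0.48, adjusted p = 0.148, and −0.93 ± 0.48, adjusted p = 0.101). With the mouse as a block both were called lower, with −0.89 ± 0.35 (adjusted p = 0.0470, with 0.0470 to 0.312 across all alternatives) and −0.995 ± 0.36 (adjusted p = 0.0241, with 0.0241 to 0.298 across all alternatives). Scd1, the related desaturase that dominates in liver, reached at most 1.23 CPM in any library.

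Gsta3 encodes an alpha-class glutathione S-transferase, a known target of the oxidant-responsive factor NRF2 (chr1:21240589-21265661, plus strand). The LP 3M libraries held 16.7, 20.8, 28.1, 25.2 and 52.1 CPM, and those of LP 3M PIC 3.85, 4.92, 18.4, 8.37 and 29.9. Without 3M the levels were 7.57, 9.96, 12.5, 10.9 and 17.2 CPM in LP and, in LP PIC, 6.01, 8.94, 26.3, 4.81 and 22.5. Mouse 5 was highest in 3 of the 4 conditions and mouse 3 in LP PIC, and the spread between mice was wide: in mouse 3 the LP 3M level was 1.07 times that in LP PIC. None of the 3 tested differences was called (−0.01 to 0.27 on the log2 scale, adjusted p from 0.691 to 0.989). Gsta1, Gsta2 and Gsta4 reached at most 0.335 CPM in any library.

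The stretch before Gsta3 is shown because NRF2 acts through the antioxidant response element, whose core matched here more than once. It covers the 150 bases before the RefSeq start (GRCm38.p6, chr1:21240435-21240584, plus strand, 5′ to 3′), with capitals for a C/EBP match (TTGCNNAA, on the other strand) and then matches to TGANNNNGC, the last of them on the other strand.
Gsta3: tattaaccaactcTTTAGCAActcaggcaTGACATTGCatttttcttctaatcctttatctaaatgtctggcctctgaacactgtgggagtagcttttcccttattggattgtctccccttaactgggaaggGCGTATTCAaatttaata
The same core occurred in the windows of 45% of all genes.

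Cd55 encodes decay-accelerating factor, a surface protein on a lipid anchor that dissolves the complement convertases (chr1:130439027-130462744, minus strand). In LP 3M it stood at 7.20, 8.13, 7.45, 13.3 and 1.57 CPM, and in LP 3M PIC at 5.43, 5.00, 1.20, 1.62 and 0.513. In LP it stood at 0.252, 0.513, 0.392, 0.305 and 0.134 CPM, and in LP PIC at 0.465, 0.605, 0.219, 0.132 and 0.0576, levels near the value of 3 counts. Cd55 was thus near the limit of detection without 3M and above it with LP 3M, while mouse 5 in LP 3M PIC lay within the range of the libraries without 3M. It was higher in LP 3M PIC than in LP by 3.31 ± 0.71 (adjusted p = 0.000499, 5 of 5 mice) and than in LP PIC by 3.26 ± 0.69 (adjusted p = 0.00102, 5 of 5 mice). The difference between LP 3M and LP 3M PIC was uneven: the LP 3M level was 1.33 and 1.63 times that in LP 3M PIC in mice 1 and 2, and 6.23, 8.22 and 3.06 times in mice 3, 4 and 5. The neighbouring copy Cd55b reached at most 0.0423 CPM in any library.

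Ceacam19 belongs to the carcinoembryonic antigen family of cell adhesion proteins (chr7:19875742-19887965, minus strand). The LP 3M libraries held 6.95, 6.13, 6.58, 12.2 and 9.37 CPM, and those of LP 3M PIC 2.27, 2.22, 1.28, 2.77 and 5.98. Without 3M the levels were 1.64, 1.64, 1.05, 1.35 and 0.626 CPM in LP and, in LP PIC, 2.79, 1.55, 1.01, 2.96 and 2.71. Like Slc35g1, it had all 5 LP 3M libraries above all 15 others, though mouse 5 in LP 3M PIC (5.98 CPM) came close to mouse 2 in LP 3M (6.13 CPM). It was higher in LP 3M PIC than in LP by 1.35 ± 0.38 (adjusted p = 0.00446, 5 of 5 mice), but was not called when mouse 5 was left out (0.74, adjusted p = 0.0773, with 0.000989 to 0.0773 across all alternatives). For LP PIC against LP it gave 0.87 ± 0.38 (adjusted p = 0.0705, 3 of 5 mice), and was called higher with the mouse as a block (0.83 ± 0.33, adjusted p = 0.0480) and without mouse 3 (adjusted p = 0.0436, with 0.0436 to 0.206 across all alternatives). The family member Ceacam1, a receptor that inhibits immune signalling, stood at 20.7 ± 4.99 CPM in LP 3M against 19.7 ± 1.23 in LP (adjusted p = 0.378), and fell from LP 3M to LP 3M PIC by 1.24 ± 0.16 (adjusted p = 8.24e-06).

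The stretch before the Ceacam19 start is shown because it and Gsta3 held the 2 C/EBP matches among the 11 genes (12.2% of all genes held one). It covers the 150 bases before the RefSeq start (GRCm38.p6, chr7:19887966-19888115, minus strand, 5′ to 3′), with capitals for TTGCNNAA and then TGANNNNGC, the latter on the other strand.
Ceacam19: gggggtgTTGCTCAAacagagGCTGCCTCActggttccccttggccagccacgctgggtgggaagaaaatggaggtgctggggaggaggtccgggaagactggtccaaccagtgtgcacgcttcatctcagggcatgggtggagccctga
Its C/EBP match lies at −143 to −136 from the start, and that of Gsta3 at −137 to −130.

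Lancl3 encodes a relative of the bacterial lanthionine synthetases (chrX:9199902-9268085, plus strand). In LP 3M it stood at 25.5, 29.2, 16.2, 28.9 and 11.6 CPM, and in LP 3M PIC at 14.9, 17.9, 3.75, 5.49 and 3.93. In LP it stood at 3.28, 2.57, 0.828, 0.784 and 1.07 CPM, and in LP PIC at 0.127, 0.475, 0.307, 0 and 0.230, from 0 to 11 counts. Lancl3 was thus lower with LP PIC than with LP in each mouse, and higher with the dual formulation. It fell from LP to LP PIC by 2.78 ± 0.75 (adjusted p = 0.00535, 5 of 5 mice), but just missed the threshold when mouse 1 was left out (−2.16, adjusted p = 0.0506, with 6.28e-05 to 0.0506 across all alternatives). It was higher in LP 3M PIC than in LP by 2.62 ± 0.53 (adjusted p = 0.00032) and than in LP PIC by 5.40 ± 0.68 (adjusted p = 9.05e-06), each in 5 of 5 mice. Lancl1 and Lancl2 stood at 23.0 ± 2.20 and 36.0 ± 2.29 CPM in LP 3M against 26.0 ± 1.504 and 38.6 ± 2.18 in LP, and were not called (adjusted p = 0.529 and 0.918).

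Morc4 encodes a nuclear ATPase of the MORC family of chromatin proteins (chrX:139821632-139871677, minus strand) and was the nearest to the level limit, at a mean of 5.06 ± 4.00 CPM in LP 3M. The LP 3M libraries held 6.12, 3.63, 3.22, 11.4 and 0.916 CPM, and those of LP 3M PIC 1.90, 1.37, 0.877, 2.25 and 0.128. Without 3M the levels were 1.18, 1.75, 1.22, 1.13 and 0.626 CPM in LP and, in LP PIC, 0.169, 0.475, 0.219, 0.132 and 0.0576, from 1 to 11 counts. Mouse 4 held the highest and mouse 5 the lowest LP 3M level, and the latter lay under 4 of the 5 LP libraries. Morc4 fell from LP to LP PIC by 2.34 ± 0.73 (adjusted p = 0.0135, 5 of 5 mice). It missed the threshold when mouse 1 or mouse 3 was left out (adjusted p = 0.0569 and 0.0540, with 0.000475 to 0.0569 across all alternatives). It was higher in LP 3M PIC than in LP PIC by 2.65 ± 0.72 (adjusted p = 0.0061, 5 of 5 mice) and was not called against LP (0.30 ± 0.61, adjusted p = 0.680).

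The 3 tested comparisons place the 11 genes in different patterns, although all were chosen as lower with the dual formulation than with LP 3M. With LP PIC against LP, edgeR called none of the 11 higher and Lancl3 and Morc4 lower, where 22.7% of all tested genes were called higher and 22.7% lower. The 2 lower of 11 are close to the background share and say little about the group as a whole. At an unadjusted p under 0.05 it gave 1 higher and 3 lower, as did DESeq2, which also called 0 higher and 2 lower after adjustment. With the mouse as a block the counts were 1 higher (Ceacam19) and 3 lower (Scd2, Lancl3 and Morc4), beside 25.0% and 26.1% of all tested genes, and without mouse 1 none of the 11 was called. The median log2 difference over the 11 was −0.48, beside 0.00 over all genes tested.

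With the dual formulation 4 of the 11 were still above the lipoparticle alone (Slc13a3, Cd55, Lancl3 and Ceacam19) and none was called lower, where 31.7% of all tested genes were called higher and 30.6% lower. That count of 4 is close to the background share, so it says little about the group as a whole. At an unadjusted p under 0.05, edgeR gave 0 lower and DESeq2 1 lower (Scd2), and after adjustment DESeq2 gave 4 higher and 0 lower. The median log2 difference over the 11 was 0.35, beside 0.02 over all genes tested. With the mouse as a block 5 were called higher (Ust in addition) and 1 lower (Scd2), beside 33.0% and 32.6% of all tested genes. For these 4 genes the level with the dual formulation thus did not return to that of the lipoparticle alone: 19.0, 33.7, 36.4 and 23.5% of their rise over LP was left with PIC.

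Against LP PIC, LP 3M PIC was called higher for 5 of the 11 (Slc13a3, Lancl3, Cd55, Morc4 and Slc35g1) and lower for none, beside 23.1% and 21.4% of all tested genes. At an unadjusted p under 0.05 neither edgeR nor DESeq2 gave a lower one, and DESeq2 called 5 higher and 0 lower after adjustment. The count of 5 was above the background share, a difference that was not tested, and the median log2 difference over the 11 was 0.74, beside 0.00 over all genes tested. The choice required a rise with 3M, which can favour both values, so they are not read as results about the group. With the mouse as a block 6 were called higher and 0 lower, beside 25.0% and 24.8% of all tested genes. With PIC in both arms, 3M still went with a higher level of 5 genes. Serinc2, Emb and Gsta3 were not called in any of the 3 comparisons, with LP 3M PIC against LP PIC at 0.71 ± 0.96, 0.15 ± 0.28 and −0.01 ± 0.53. A missed threshold does not show equal levels, above all for Serinc2. Each condition enters 2 of the 3 comparisons, so the 3 sets of values are not independent.

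**Figure D2:**
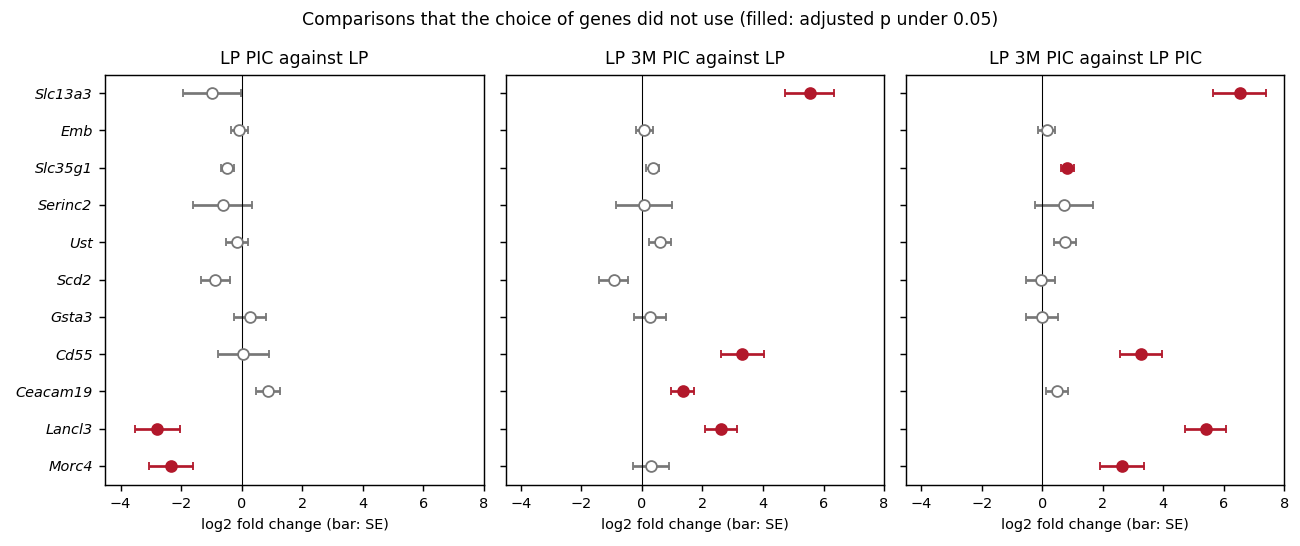
Fitted log2 fold change (horizontal axis) of each gene in the 3 comparisons that the choice did not make, although it used the levels of these conditions as upper limits. Bars are the SE and filled red points passed an adjusted p under 0.05. Filled points lie left of 0 for Lancl3 and Morc4 with LP PIC against LP, and right of 0 for 4 genes with LP 3M PIC against LP and for 5 with LP 3M PIC against LP PIC.

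Relative to the LP 3M mean, the condition that came closest was LP 3M PIC for 7 genes, LP for 3 and LP PIC for 1. Cd55, Slc13a3 and Lancl3 had the lowest starting levels, at 4.24, 0.487 and 7.65% of the LP 3M mean in LP. Emb, Scd2 and Gsta3 had the highest, at 50, 44.3 and 40.6%. The rise over LP that was left with PIC ran from 36.4% for Lancl3 to −41.9% for Scd2, which ended below its LP mean. The choice bounds this share from above, since LP 3M PIC could be at most 50% of the LP 3M mean. For Emb, already at that level in LP, it left almost no room for a remaining rise. Emb (−2.44%) and Serinc2 (−1.02%) stood at about their LP mean, and Morc4 (3.22%), Slc35g1 (8.06%), Gsta3 (8.74%) and Ust (13.6%) lay somewhat above it.

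**Figure D3:**
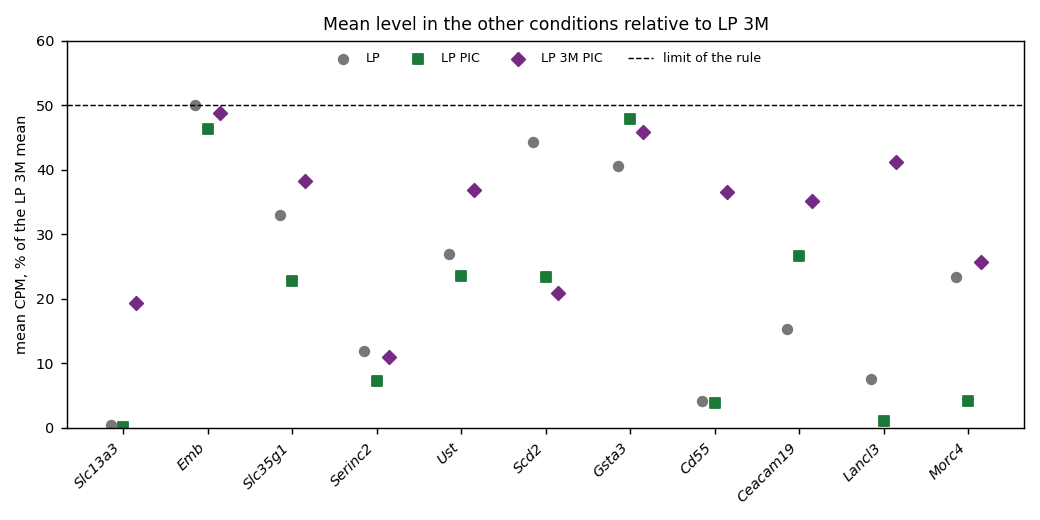
Mean CPM in LP (grey circles), LP PIC (green squares) and LP 3M PIC (purple diamonds) as a percentage of the LP 3M mean (vertical axis) for each gene. The dashed line at 50% is the limit of the choice; Emb and Gsta3 sit just under it, and the spread between the 3 conditions is widest for Lancl3, from 1.02 to 41.3%.

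The mice differed in how closely they followed the pattern. LP 3M was the highest of a mouse's 4 libraries in 5 of 5 mice for all 11 genes, a direction that the choice by means favours. The fold limit was met in 5 of 5 mice by 4 genes (Slc13a3, Ust, Slc35g1 and Serinc2), in 4 by Ceacam19 and Morc4, in 3 by Gsta3, Lancl3 and Cd55, and in 2 by Emb and Scd2. Counted by mouse, 9, 9, 8, 9 and 6 of the 11 genes met it in mice 1 to 5. Mouse 5 was the lowest LP 3M library for 7 of the 11 genes and the highest for Gsta3. In 2 of the 11 genes the 5 LP 3M libraries lay above all 15 others, as did 0.752% of the 9442 genes at the same level.

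**Figure D4:**
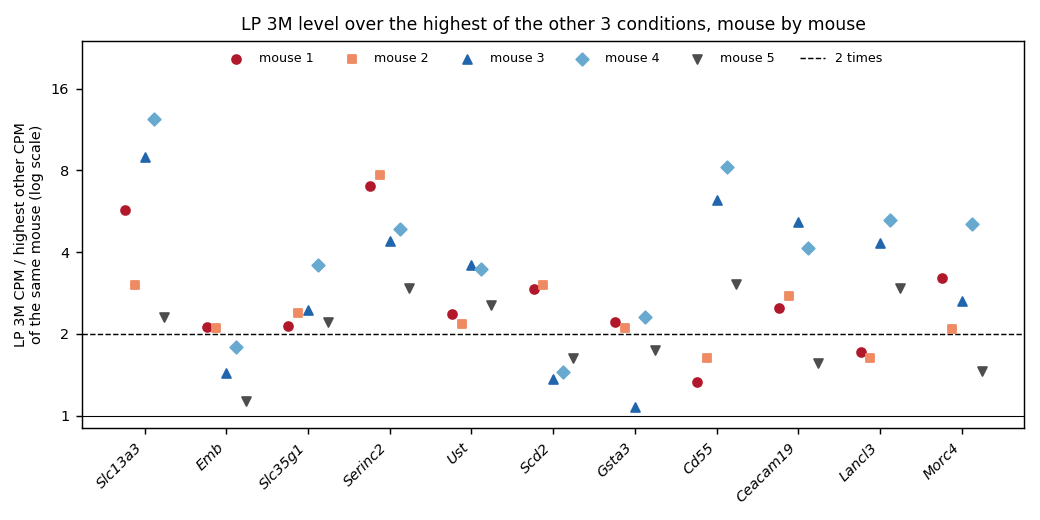
Ratio of a mouse's LP 3M CPM to the highest CPM among its other 3 libraries (vertical axis, log scale) for each gene, with 1 symbol per mouse. The dashed line marks the 2 times of the fold limit; all points lie above 1, and those of Slc13a3, Slc35g1, Serinc2 and Ust all lie above the line.

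To look at libraries that a choice had not used, the same limits were applied to 4 mice at a time and read in the mouse left out. This gave 9, 13, 14, 10 and 14 genes with mice 1 to 5 left out, of which 8, 10, 11, 8 and 9 were among the 11. The same genes recur in these 60 choices. In the left-out mouse LP 3M was the highest condition in 58 of the 60, where 12.6 to 17.6% of all genes at the level limit had LP 3M highest. The fold limit was met in 36 of the 60, or 6, 8, 9, 7 and 6 genes by mouse, where 0.0958 to 0.233% of all genes met it. Slc13a3, Ust, Slc35g1 and Serinc2 were chosen and met it each time. For the fold this follows from their meeting it in each of the 5 mice, so it adds nothing. Genes that entered only such a choice included Pim2, a survival kinase gene, at 38.4 CPM in LP 3M and 19.9 with PIC added over all 5 mice.

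Around the limits there was no gap. Just inside the fold limit lay Emb (2.00), Gsta3 (2.09), Scd2 (2.26), Lancl3 (2.42) and Slc35g1 (2.61), and just outside it Gbgt1 (1.95), Pim2 (1.93), Fcrls (1.91), Fam213b (1.85) and Col18a1 (1.77). By level, Morc4 (5.06 CPM) and Cd55 (7.54 CPM) lay just inside, and Myrf (4.90 CPM), Itga8 (4.47 CPM) and Chst7 (3.02 CPM) just outside while meeting the fold limit.

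Mice 1 and 2 stood apart from mice 3, 4 and 5 in Xist, the RNA that coats the inactive X chromosome, at 300.2 to 622 CPM in their 8 libraries against 0 to 0.176 in the other 12. This division was noticed after the values were seen and is given as a description. Serinc2 was higher in mice 1 and 2 than in the others in all 4 conditions without overlap, as were 1.38% of tested genes, with another 1.01% lower. The ratio of LP 3M to the highest other condition was 9.05 for Serinc2 in mice 1 and 2 and 4.34 in mice 3 to 5. For Scd2 it was 2.96 and 1.52, for Emb 2.30 and 1.80, for Gsta3 2.14 and 1.86, and for Ceacam19 2.91 and 2.81. For the other genes the order was the opposite, at 1.47 and 6.71 for Cd55 and 1.67 and 4.31 for Lancl3. The ratio was 4.21 and 8.67 for Slc13a3, and 2.98 and 4.78 for Morc4. For Ust and Slc35g1 the values were 2.26 and 3.37, and 2.26 and 2.95. Lancl3 and Morc4 are the X-linked genes of the 11, and neither separated the mice in all 4 conditions.

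Cell type markers were summed as a description of the cultures. A sum does not show which marker carried it or whether cells of that type were present. The summed CPM of 10 macrophage markers was 21523 to 27164 in LP 3M, above the 11679 to 20121 of the other 15 libraries, with no marker at 0. The sum over 11 neutrophil markers was 94.6 to 730 CPM in LP 3M, 243 to 3912 in LP 3M PIC, 28.8 to 82.7 in LP PIC and 9.86 to 20.8 in LP, with Elane and Retnlg, granulocyte genes, at 0 in all LP 3M libraries. Its median was 241 CPM in LP 3M, 1046 with the dual formulation, 12.1 in LP and 59.1 in LP PIC. The macrophage sum was thus highest in LP 3M, as were the 11 genes, and the neutrophil sum was higher in LP 3M than without 3M and higher still with the dual formulation. Fibroblast markers summed to 38.3 to 99.5 CPM in LP 3M and 19.9 to 150 in the other conditions. Dendritic cell markers summed to 617 to 732 in LP 3M, 508 to 704 with PIC added to it, 731 to 906 in LP PIC and 992 to 1181 in LP. Of the dendritic cell markers, Cd209a was at 0 in all libraries of each condition. Flt3 and Siglech were also at 0 in LP 3M, Xcr1 in LP, and Xcr1 and Siglech in both conditions with PIC. Erythroid, B cell, T and NK cell, mast cell, eosinophil and platelet markers summed to at most 8.63 CPM in any library. The part of macrophage, neutrophil and dendritic cell markers, which moved with the conditions, in the levels of the 11 genes was not tested.

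Of the 11 genes, 2 were in the textbook pathways that were listed. The share of all tested genes in these lists was not worked out, so the count is not read as few or many. Of 19 lists of macrophage pathways, 17 held none of them, among these the lists of NF-kB targets, inflammatory cytokines, chemokines, interferon-stimulated genes, glycolysis and cell division. Gsta3 was in the list of NRF2 and heme genes and Scd2 in that of lipid uptake and storage. The counts and medians of both lists include these genes, whose LP 3M levels the choice used. Of 24 NRF2 and heme genes 14 rose and 1 fell with LP 3M against LP (median log2 change 0.40, over all genes −0.01), where 20.0% of all tested genes rose and 19.5% fell. With PIC added to LP 3M, 4 rose and 4 fell (median −0.17, over all genes 0.01), beside 20.5% and 21.0% of all tested genes. Slc7a11, the cystine transporter that feeds glutathione synthesis, rose by 4.06 ± 0.32 with LP 3M and by a further 1.29 ± 0.28 with PIC added (adjusted p = 2.08e-08 and 0.00135). Gsr, glutathione reductase, likewise rose by 1.20 ± 0.12 and a further 0.63 ± 0.12 (adjusted p = 3.38e-07 and 0.000328), and the heme transporter gene Slc48a1 rose by 0.82 ± 0.12 and was then not called (0.02 ± 0.11, adjusted p = 0.884). These 3 genes thus did not show the lower level with the dual formulation that Gsta3 did.

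Of 26 tested genes of lipid uptake, storage and PPAR targets, 7 rose and 11 fell with LP 3M (median −0.41, over all genes −0.01, with 20.0% and 19.5% of all tested genes called). When PIC was added, 2 rose and 9 fell (median −0.25, over all genes 0.01, with 20.5% and 21.0% called). Abcg1, a cholesterol exporter, fell by 1.38 ± 0.09 with LP 3M and rose by 0.65 ± 0.08 with PIC added (adjusted p = 7.21e-10 and 1.11e-05). The Scd2 means moved the other way in both comparisons. Abcg1 in LP 3M PIC (105 CPM) stayed below LP (188 CPM) and LP PIC (193 CPM). The scavenger receptor gene Marco rose by 8.49 ± 0.73 to 317 CPM and stood at 217 with PIC added (−0.54 ± 0.50, adjusted p = 0.401). Pparg, the lipid-sensing receptor, fell by 1.38 ± 0.15 and then by a further 0.77 ± 0.15 (adjusted p = 7.74e-07 and 0.000447).

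The list of sterol synthesis genes holds none of the 11 and was picked for description after its values were seen. Its called genes mostly rose with LP 3M and fell when PIC was added, but not every gene peaked in LP 3M. The comparisons of LP 3M with LP and with LP 3M PIC share the LP 3M libraries. Of 24 tested, 10 rose and 1 fell with LP 3M (median 0.37, over all genes −0.01), beside 20.0% and 19.5% of all tested genes. When PIC was added, 0 rose and 22 fell (median −0.79, over all genes 0.01), beside 20.5% and 21.0%. With LP PIC against LP, 1 rose and 6 fell (median −0.29, over all genes 0.00), beside 22.7% each way. Hsd17b7, an enzyme of cholesterol synthesis, rose by 0.74 ± 0.19 with LP 3M and fell by 0.88 ± 0.19 when PIC was added (adjusted p = 0.00524 and 0.00144). Mvd, mevalonate diphosphate decarboxylase, rose by 1.01 ± 0.23 with LP 3M (adjusted p = 0.00219) and was not called when PIC was added (−0.30 ± 0.23, adjusted p = 0.305). The Mvd mean was highest in LP PIC, at 34.5 CPM, against 30.2 in LP 3M, 24.6 in LP 3M PIC and 16.1 in LP. Hsd17b7 was among the genes that met a fold limit of 1.5, and not that of 2.

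Relatives of the 11 genes were taken by the stem of their symbols, with the 11 already known. Of 39 relatives 13 were expressed enough to be tested, and 0 of these met the fold limit. Of genes at 5 CPM or more in LP 3M, the 11 chosen were 0.117%, so a count of 0 says little. Among the other 26, LP 3M was at least 2 times each other condition for 4, all under 1 CPM: Ceacam10 stood at 0.575 ± 0.269 CPM in LP 3M against 0.197 ± 0.0335 in LP, 0.13 ± 0.0929 in LP PIC and 0.144 ± 0.117 with the dual formulation, and Gsta1, Gsta2 and Slc35g3 were at 0.0174 to 0.0943 CPM in LP 3M, under the value of 3 counts. At such levels a few reads can give this ratio, and its share among all genes as low was not worked out. With LP 3M against LP, Morc3 rose by 0.31 ± 0.09 and 4 of the 13 fell (Nptn, Serinc3, Serinc5 and Ceacam16), beside 20.0% and 19.5% of all tested genes. With PIC added to LP 3M, 2 rose (Ceacam16 and Morc3) and 3 fell (Slc13a2, Lancl2 and Ceacam1), beside 20.5% and 21.0%. With 13 genes these counts are too small to judge against the background shares, and no difference from them was tested.

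The promoter table held windows for 10 of the 11 genes (12 windows, from 250 bases before to 50 after the start), and 10 short motifs were searched on both strands in these and in the windows of 27025 genes. Of these, 7 were not found in any of the 10 genes: AP-1 (TGANTCA, in 8.97% of all genes), NF-kB (4.56%), the core of the interferon-stimulated response element (3.99%), CRE (TGACGTCA, 2.03%), PU.1 (GAGGAAGT, 3.69%), EGR (GCGTGGGCG, 0.707%) and the TATA box (TATAAA, 15.7%). The E-box CACGTG was found for 1 gene, Slc13a3 (8.09% of all genes). C/EBP matched for 2 genes and the antioxidant core for 5 (Slc13a3, Ust, Gsta3, Serinc2 and Ceacam19), beside 12.2% and 45% of all genes. A missing match says only that these letters are not in the window.

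Counting could be affected where genes overlap. Exons of Cd55, Emb and Lancl3 share 102, 686 and 198 bases with a gene on the opposite strand in GENCODE M21, and none of these 3 partners is listed in the tables. No strand setting for the counting is stated in the sources used here, so reads of those partners cannot be told apart from the 3 genes. Scd2 shares 61 bases with Mir5114, which had 0 counts in all libraries.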

How the data were processed

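Poly(A) RNA of 20 libraries was sequenced, 5 mice in each of 4 conditions, and groups and mouse numbers were taken from the sample labels. The authors deposited raw counts of reads per gene, 1 table per library, not normalised. The submitters' processing notes list STAR 2.7.11b, HTSeq 0.13.5, FastQC 0.11.1, DESeq2 1.44.0 and GRCm38, and annotation and strand setting were not given in the sources used here. Entries of no gene (reads outside genes 5.94 to 8.58%, ambiguous reads 1.14 to 1.90%) were left out of library sizes. CPM used plain gene totals. The floor of 3 counts covers counting error alone, as PCR copies cannot be told from separate molecules here. No pair of libraries within a condition differed by as little as sampling noise (chi-squared per degree of freedom 7.43 to 224 over 40 pairs).

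Tests used edgeR 4.0.16 in R 4.3.3 (limma 3.58.1): filterByExpr (minimum count 10, total 15; 12132 genes with 99.969% of counts), TMM factors from 0.945 to 1.07, robust quasi-likelihood F-tests, two-sided, with 1 mean per condition over 20 libraries and a Benjamini-Hochberg adjusted p under 0.05 (biological coefficient of variation 0.194). The SE was derived from the F statistic, as the log2 change over its square root. Fits were checked on simulated counts. Alternatives were DESeq2 1.42.0, RLE factors, no filter, the mouse as a block, only the 2 groups compared, each mouse left out, other limits, and, added after seeing the data, fits without LP 3M and choices within mice 1 and 2 or 3 to 5. The same mouse gave cells for each condition, so the numbers pair the libraries: deviations from group means correlated at 0.137 to 0.541 between libraries of a mouse (30 pairs) and −0.404 to 0.375 between mice (120 pairs).

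The 11 genes, gene lists, motifs and tests were chosen with earlier results of these data known. All 11 genes are named; from each described list, the 3 genes with the smallest p for LP 3M against LP are. In the sterol list, 1 of them is not reported here. Coordinates and exon lengths come from GENCODE M21 on GRCm38, and promoter windows from RefSeq (GRCm38.p6); Scd2 was not matched there. Figures and tables used matplotlib 3.10.9, scipy 1.17.1, pandas 2.3.3 and numpy 2.4.6 with Python 3.11.15.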

Additional observations from a re-analysis of the deposited data

How the results depend on the processing

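For LP PIC against LP, the 2 genes called became 4 with the mouse as a block (replicate block) and 0 to 3 when each mouse was left out, with 0 without mouse 1; the cause was not tested. For LP 3M PIC against LP the 4 became 6 with the block and 3 to 4 with each mouse left out, and against LP PIC the 5 became 6 and 4 to 5. DESeq2, RLE factors, no filter, the 2 groups alone and a fit without the LP 3M libraries gave 2, 4 and 5, as in the main analysis. With the 2 groups alone, Cd55 was not tested for LP PIC against LP. Of 362 values of single genes under alternatives, 332 kept their direction and side of the threshold, 5 lost a call and 7 gained one. The other 18, in 9 results, changed sign, and neither they nor the main values were called; the cause was not tested. Cd55 for LP PIC against LP went to −0.016 with DESeq2 and −0.12 with the block, and Gsta3 for LP 3M PIC against LP to −0.0032 with the block. With each mouse left out, LP PIC against LP ran from −0.21 to 0.20 for Emb, −0.068 to 0.47 for Gsta3 and −0.23 to 0.30 for Cd55. LP 3M PIC against LP ran from −0.11 to 0.18 for Emb, −0.13 to 0.42 for Gsta3 and −0.45 to 1.02 for Serinc2, and LP 3M PIC against LP PIC from −0.013 to 0.33 for Emb, −0.33 to 0.21 for Gsta3 and −0.21 to 0.094 for Scd2. The number of genes chosen follows the limits by construction: 40 at a fold of 1.5, 3 at a fold of 3 (Slc13a3, Serinc2 and Morc4), 19 at a minimum of 1 CPM, 7 at 10 CPM, and 4 where each mouse had to meet the fold. It was 13 with TMM-scaled libraries (all 11 kept), 13 by medians (8 kept), 9 to 14 with each mouse left out, 19 within mice 1 and 2 (8 kept) and 12 within mice 3 to 5 (7 kept). Depth limits the values of Cd55, Lancl3 and Morc4 in LP PIC, which rest on 0 to 14 counts per library. It also limits Serinc2, with 9, 1 and 2 counts in LP PIC in mice 3, 4 and 5. In LP 3M PIC, mouse 3 held 3 counts of Serinc2.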
